A study of Mus musculus with 8 samples.

Results

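Messenger RNAs for the machinery that builds ribosomes were followed in alveolar macrophages lacking Tfam. The set held 45 of the 12367 genes of the expression table. Genes whose symbol begins with Nop (8), Utp (11), Polr1 (5) or Rrp (8) were taken by name, together with 13 genes named singly: Fbl, Ncl, Npm1, Nolc1, Dkc1, Gar1, Nhp2, Ddx21, Bop1, Pes1, Wdr12, Rrs1 and Nob1. The rule uses names alone, although it was set with earlier results of these data known. By role, 5 of the 45 are subunits of RNA polymerase I, 3 are core proteins of box C/D and 4 of box H/ACA small nucleolar ribonucleoproteins (snoRNPs), 18 act mainly on the small (40S) and 11 on the large (60S) ribosomal subunit, and 4 are abundant nucleolar proteins.

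Ribosomes are built in the nucleolus. RNA polymerase I transcribes the ribosomal DNA into a long precursor, snoRNPs direct its methylation and pseudouridylation, and a large assembly called the SSU processome forms on its leading end and releases the small subunit precursor. Separate sets of factors process the large subunit, and both precursors are then exported. The RNAs counted here are the polyadenylated mRNAs for these proteins. The RNA polymerase I transcript itself carries no poly(A) tail, so ribosomal RNA output was not measured.

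Macrophages of the lung air spaces were sorted as CD45+ F4/80+ CD11c+ cells from 3-week-old mice that had received no treatment. The WT group was Tfam-fl/fl, with no Cre. The KO group was CD11c-Cre Tfam-fl/fl, in which a CD11c promoter drives Cre in CD11c-expressing cells, so that both groups carried the floxed alleles and the KO group alone carried the recombinase. Without a group that had Cre and unfloxed Tfam, the Cre and the loss of Tfam cannot be told apart. There were 4 libraries in each group, and every one pooled the cells of 3 to 5 mice of either or both sexes. Tfam encodes a protein that packages mitochondrial DNA and acts as a transcription factor for it. The loss of Tfam in KO was the check of the labels. Its values were 26.1, 35.2, 30.3 and 29.7 in WT replicates 1 to 4 and 4.52, 5.08, 4.29 and 3.52 in KO replicates 1 to 4 (log2 fold change -2.55 with SE 0.117, adjusted p = 1.02e-06 by limma).

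Values are on the authors' normalised per-million-reads scale, in which 3 reads amounted to 0.1 to 0.152. The listed genes held 24776683 to 29161957 reads in the WT libraries and 20243772 to 30263201 in the KO libraries. Fold changes are KO over WT of log2(value + 1), so that changes of genes with low values come out too small, and a positive number means a higher value in KO. A gene was called when the adjusted p of limma over all 12163 genes tested was under 0.05. The alveolar macrophage markers were present in both groups and had a mixed course, 3 of 14 higher and 5 lower. Ear1, an eosinophil-associated ribonuclease of these cells, went from 845 ± 112 to 123 ± 39.3, and Siglecf from 501 ± 37.6 to 194 ± 20.9 (SD, n = 4). Itgax, which encodes the sort marker CD11c, went the other way, from 1094 ± 48.5 to 2050 ± 202, and Car4 from 723 ± 122 to 1336 ± 190.

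Sequences just upstream of the start sites are shown for 4 of the members called higher. The printed stretches differ in length and in the short motifs that promoters of this kind can hold. They are from RefSeq on GRCm38.p6, read 5′ to 3′ on the gene's strand, with motif matches in capitals. Positions count back from the start site, whose preceding base is -1. The motifs searched on both strands were the E-box CACGTG (bound by Myc-type factors among others), CCGGAAG (bound by ETS-type factors), TCTCGCG and the GC box GGGCGG. No matches overlapped in these 4 stretches, which leave out any bases that the annotation places in an exon. Nop2 has an E-box at -60, CCGGAAG at -38 and a GC box at -158. Utp18 has an E-box at -20 and a GC box at -70. Nhp2 has 3 GC boxes on the opposite strand, at -223, -127 and -107, and Polr1a has none of the 4 motifs in its stretch. Between 250 bases before and 50 bases after the start, Utp18 and Nhp2 also hold CCGGAAG, in bases not printed.
Nop2, chr6:125131633-125131882, + strand: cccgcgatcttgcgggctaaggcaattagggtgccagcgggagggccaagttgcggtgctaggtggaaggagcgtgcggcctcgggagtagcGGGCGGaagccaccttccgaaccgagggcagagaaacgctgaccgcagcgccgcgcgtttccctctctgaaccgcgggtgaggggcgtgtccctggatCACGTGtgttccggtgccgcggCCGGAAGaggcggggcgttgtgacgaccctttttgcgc
Utp18, chr11:93885767-93885851, - strand: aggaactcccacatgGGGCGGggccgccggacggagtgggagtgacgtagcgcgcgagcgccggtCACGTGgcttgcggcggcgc
Nhp2, chr11:51619523-51619734, + strand: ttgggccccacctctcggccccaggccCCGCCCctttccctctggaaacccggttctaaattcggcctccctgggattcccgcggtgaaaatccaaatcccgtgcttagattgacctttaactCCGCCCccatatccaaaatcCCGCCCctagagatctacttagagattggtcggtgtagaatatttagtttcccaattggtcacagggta
Polr1a, chr6:71908803-71909052, + strand: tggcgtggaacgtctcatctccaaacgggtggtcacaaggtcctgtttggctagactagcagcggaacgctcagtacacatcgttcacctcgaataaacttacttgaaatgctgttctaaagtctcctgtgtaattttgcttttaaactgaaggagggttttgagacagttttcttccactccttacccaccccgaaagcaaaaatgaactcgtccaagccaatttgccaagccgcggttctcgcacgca

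Windows from 250 bases before to 50 bases after the start were found for 36 of the 45 members. CACGTG was in 8 of the 36 (22.2%): Nop2, Pes1, Rrp7a, Utp14b, Utp18, Utp20, Utp25 and Utp4. The share was 12% of the 9366 genes of the expression table that matched and 8.09% of all 27025 genes with a window. CCGGAAG was in 11 of 36 members (30.6%), against 21.4% of the matched genes. TCTCGCG was in 4 of 36 (11.1%), against 6.25%, and the GC box in 24 of 36 (66.7%), against 68.1%. Among the 10 members called higher that had a window, 3 held CACGTG (Nop2, Utp18 and Utp4), 5 held CCGGAAG (Nhp2, Nop2, Polr1c, Utp18 and Utp4) and 8 held a GC box. These are matches of letters, and no binding was measured.

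Over all members, small increases in KO outnumbered decreases. Of the 45, 12 rose (26.7%) and 1 fell (2.22%), and 32 did not pass the test. Over all genes tested, 18.7% were called higher and 20.0% lower, 38.7% together, so that the members held a larger share of higher calls and a smaller share of lower calls than the table as a whole. Their median log2 fold change was 0.13, against -0.01 over all genes, and 34 of 45 were above 0. The changes were small: the range was -0.21 to 0.67, only Polr1c moved by more than 0.5, and the median size without sign was 0.17, against 0.21 over all genes. The groups' values did not overlap for 11 members, all higher in KO. Over all genes tested, the groups did not overlap for 37.7%, with 18.1% wholly higher in KO and 19.6% wholly lower.

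The calls depended on which libraries were used and on the scale. The count of members called higher was 6 (13.3%) when KO replicate 2 or KO replicate 3 was left out, where 16.1% and 15.4% of all genes were higher. It was 7 (15.6%) when WT replicate 1 or WT replicate 2 was, where 16.6% and 16.3% of all genes were. In these 4 cases the members' share of higher calls was thus no larger than that of all genes. It was 18 (40.0%) without KO replicate 4, where 18.7% of all genes were higher and 20.4% lower (39.1% together). The count called lower was 0 without any one of KO replicates 1 to 3 or WT replicates 2 to 4. Polr1c, Npm1, Nop53, Ddx21, Nhp2 and Utp14a were called whichever library was left out. The authors' values are per-million values divided by a library factor, which was 1.02 to 1.04 in WT and 0.959 to 0.972 in KO. On a plain per-million scale, without that factor, 5 members rose (Polr1c, Npm1, Ddx21, Nhp2 and Nop53) and 3 fell (Bop1, Pes1 and Polr1e), which is 11.1% and 6.67%. Of all genes, 14.1% were higher and 28.6% lower on that scale, 42.7% together. The plain scale moved all genes down alike, so that the medians were 0.04 for the members and -0.09 for all genes. With the replicate number as a block, 16 members rose and 1 fell, beside 22.4% and 24.3% of all genes, 46.7% together.

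**Figure D1:**
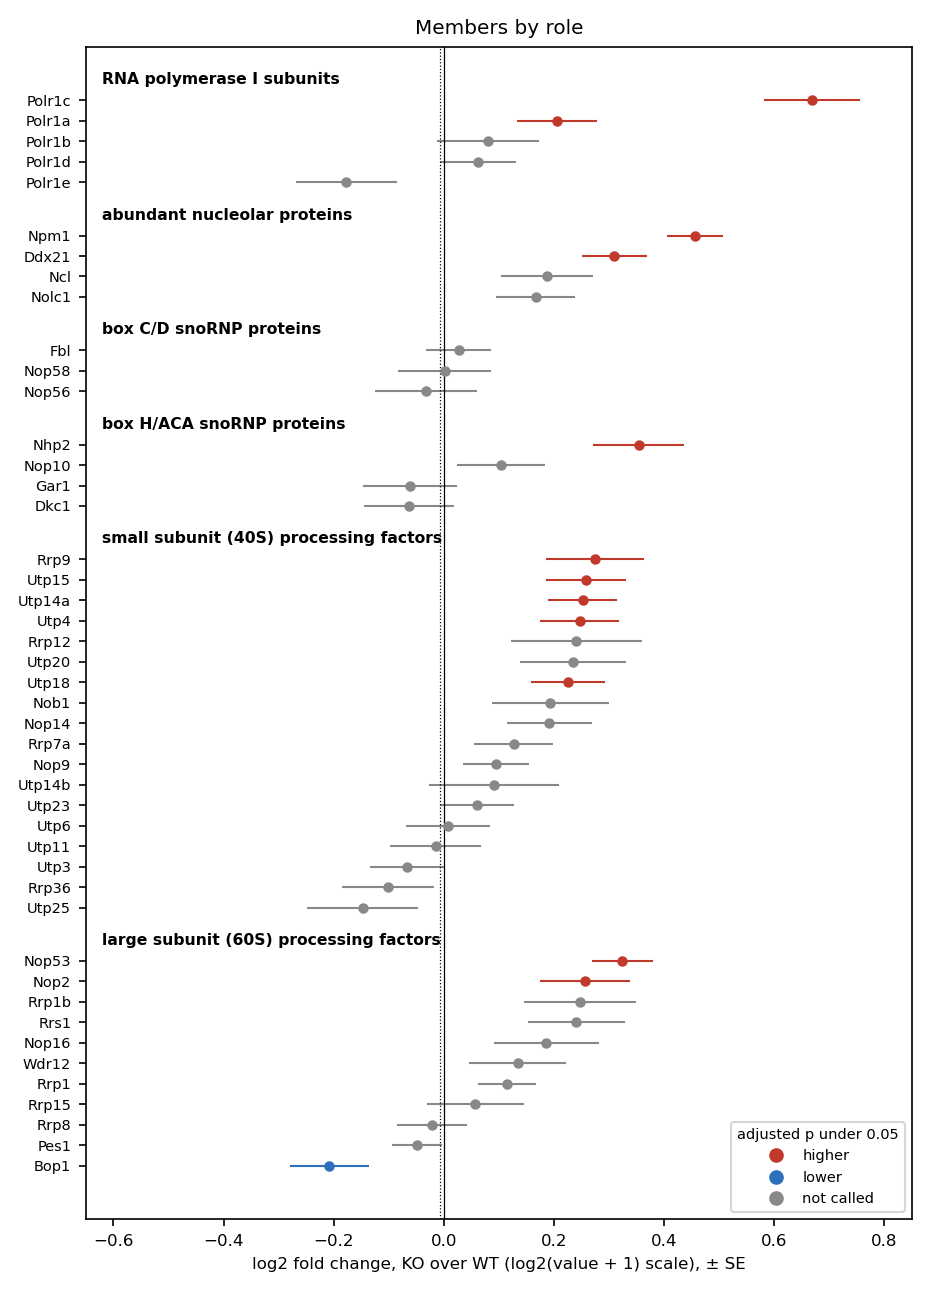
Log2 fold change of each of the 45 members, KO over WT, grouped by role; bars are the standard error and the dotted line is the median of all genes tested. Polr1c lies farthest to the right at 0.67, 12 members called higher lie at 0.21 or above, and Bop1 at -0.21 is the member called lower.

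**Figure D2:**
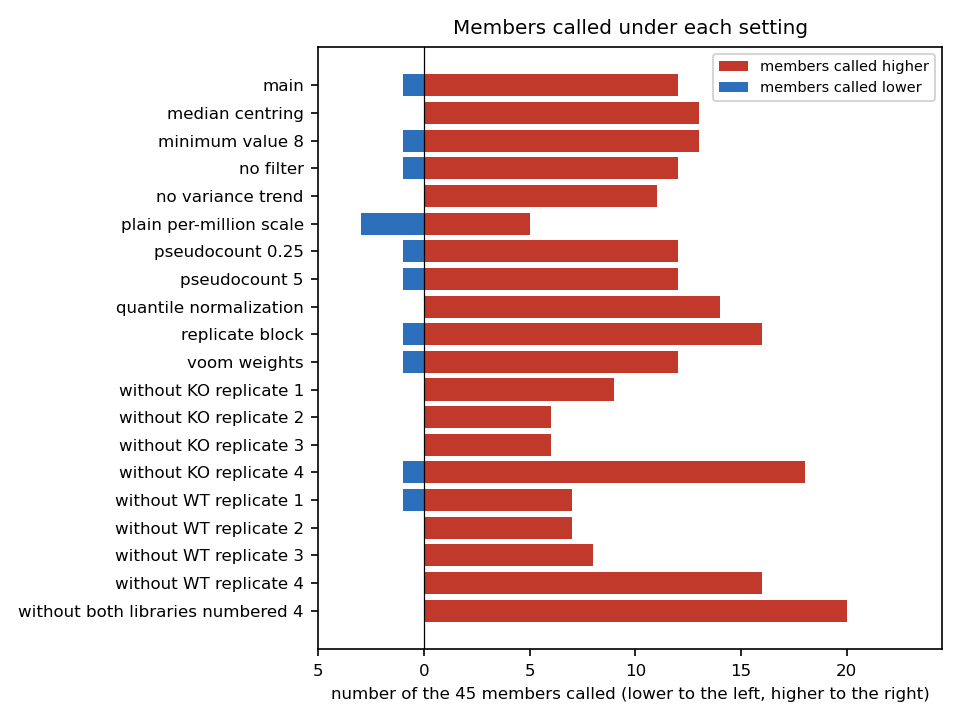
Number of the 45 members called higher (to the right) and lower (to the left) under each setting, at adjusted p under 0.05. The higher calls run from 5 on the plain per-million scale to 20 without both libraries numbered 4, and the lower calls from 0 to 3.

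Among the 5 RNA polymerase I subunits of the set, Polr1c and Polr1a rose, and Polr1b, Polr1d and Polr1e were not called. The higher share was 40.0%, against 18.7% of all genes. limma called 0 lower (0 also at unadjusted p under 0.05 and with voom weights). Polr1c (ENSMUSG00000067148, chromosome 17, 46243920 to 46248054 on GRCm38, minus strand) encodes a subunit that RNA polymerases I and III share. Its values were 19.5, 21.5, 18.1 and 23.5 in WT replicates 1 to 4 and 34.2, 31.3, 32.1 and 35.5 in KO replicates 1 to 4. Every KO library was above every WT library. The means were 20.6 ± 2.37 and 33.3 ± 1.92 (SD, n = 4), which is 0.67 on the log2 scale (SE 0.0869; limma, adjusted p = 0.000259).

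Polr1a (chromosome 6, 71909053 to 71984935, plus strand) encodes the largest subunit, which holds the catalytic centre. Its values were 36.5, 39.3, 39.8 and 42.1 in WT and 47.8, 49.1, 45.1 and 40.9 in KO, so that KO replicate 4 lay within the WT range. The log2 fold change was 0.21 (SE 0.0726, limma adjusted p = 0.0476), and this call was lost without any one library other than KO replicate 4 or WT replicate 4 (adjusted p up to 0.123) and with the replicate number as a block (adjusted p = 0.0536). Polr1b, the second-largest subunit and partner of Polr1a in the catalytic cleft, had 19.2, 21.4, 20.1 and 24.2 in WT and 22.1, 22.4, 20.0 and 25.3 in KO. Its groups overlapped (log2 fold change 0.08, 95% interval -0.10 to 0.26). On the other strand, Gm19078 and Gm26628 overlap Polr1a.

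Polr1d, which pairs with the Polr1c product in both RNA polymerases I and III, was 84.4 ± 3.11 in WT and 88.4 ± 8.16 in KO (log2 fold change 0.06, adjusted p = 0.523). Polr1e, which encodes the RNA polymerase I specific subunit PAF53, was 14 ± 1.07 in WT and 12.3 ± 1.26 in KO (log2 fold change -0.18, adjusted p = 0.158). The 95% interval of Polr1c, 0.50 to 0.84, lay above that of its assembly partner Polr1d, -0.07 to 0.20. The difference between these genes was not tested.

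The rest of the RNA polymerase I apparatus had no higher call. Of 18 tested genes for its transcription factors, remaining subunits and subunits shared with other RNA polymerases, limma called 0 higher (0 also at unadjusted p under 0.05 and with voom weights) and 1 lower, with a median of -0.10. The lower share was 5.56%, beside 18.7% higher and 20.0% lower over all genes. The lower one, Polr2h, a subunit common to RNA polymerases I, II and III, went from 14.7 ± 1.3 to 11.8 ± 0.984 (log2 fold change -0.29, adjusted p = 0.0277). Its call was lost without KO replicate 2, KO replicate 3, WT replicate 2, 3 or 4, with a value of -0.25 at the smallest. Ubtf, the factor that keeps ribosomal DNA open and recruits the polymerase, had 92.6, 108, 100 and 134 in WT and 95.8, 95.7, 87.8 and 108 in KO (log2 fold change -0.16, adjusted p = 0.287). Rrn3, which brings the polymerase to the promoter, had 42.6, 47.9, 46.3 and 45.2 in WT and 45.8, 53.9, 50.8 and 50.8 in KO, where KO replicate 1 fell inside the WT range (log2 fold change 0.14, adjusted p = 0.117). Cd3eap, partner of PAF53, was 25.6 ± 3.09 and 21.4 ± 2.13 (log2 fold change -0.25, adjusted p = 0.0845), and passed with the replicate block (adjusted p = 0.0132), where the lower count of this list was 3. The lower count was 3 without WT replicate 4 too, and without WT replicate 3 there was 1 higher call.

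Abundant nucleolar proteins had the highest summed values and the highest median log2 fold change of the 6 roles, 0.25. Of the 4, 2 were called higher (50.0%, against 18.7% of all genes). The role was named for abundance, so its level is no separate result, and Nolc1 lay below Rrp1 of the large subunit role (64.2 and 125 in WT). Npm1 (ENSMUSG00000057113, chromosome 11, 33152287 to 33163206, minus strand) encodes nucleophosmin, a histone and ribosome chaperone of the outer nucleolus. Its values were 448, 457, 415 and 414 in WT and 588, 588, 617 and 586 in KO. All KO libraries exceeded all WT libraries, and the means of 433 ± 22.3 and 595 ± 15.2 (SD, n = 4) differed by 0.46 on the log2 scale (SE 0.0506; limma, adjusted p = 0.000102). Per kilobase of exon, Npm1 had the highest WT level of the 45 at 163, followed by Ncl at 58.6 and Ddx21 at 39.8.

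Ddx21 (chromosome 10, 62580251 to 62602281, minus strand) encodes an RNA helicase of the nucleolus. Its values were 195, 209, 205 and 214 in WT and 240, 274, 267 and 242 in KO, again without overlap (log2 fold change 0.31 with SE 0.0583, adjusted p = 0.00235 by limma). Ncl encodes nucleolin, which binds nascent precursor RNA. It had 622, 616, 613 and 537 in WT and 708, 678, 758 and 584 in KO. The library numbered 4 was the lowest in both groups, and KO replicate 4 lay below 3 of the WT libraries. The log2 fold change of Ncl was 0.19 (SE 0.0842, adjusted p = 0.108) and passed with the replicate block (adjusted p = 0.0132). Nolc1, which carries snoRNPs into the nucleolus, was 64.2 ± 5.57 and 72.1 ± 4.09 (log2 fold change 0.17, adjusted p = 0.0968). Without KO replicate 4, all 4 genes of this role were called higher.

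**Figure D3:**
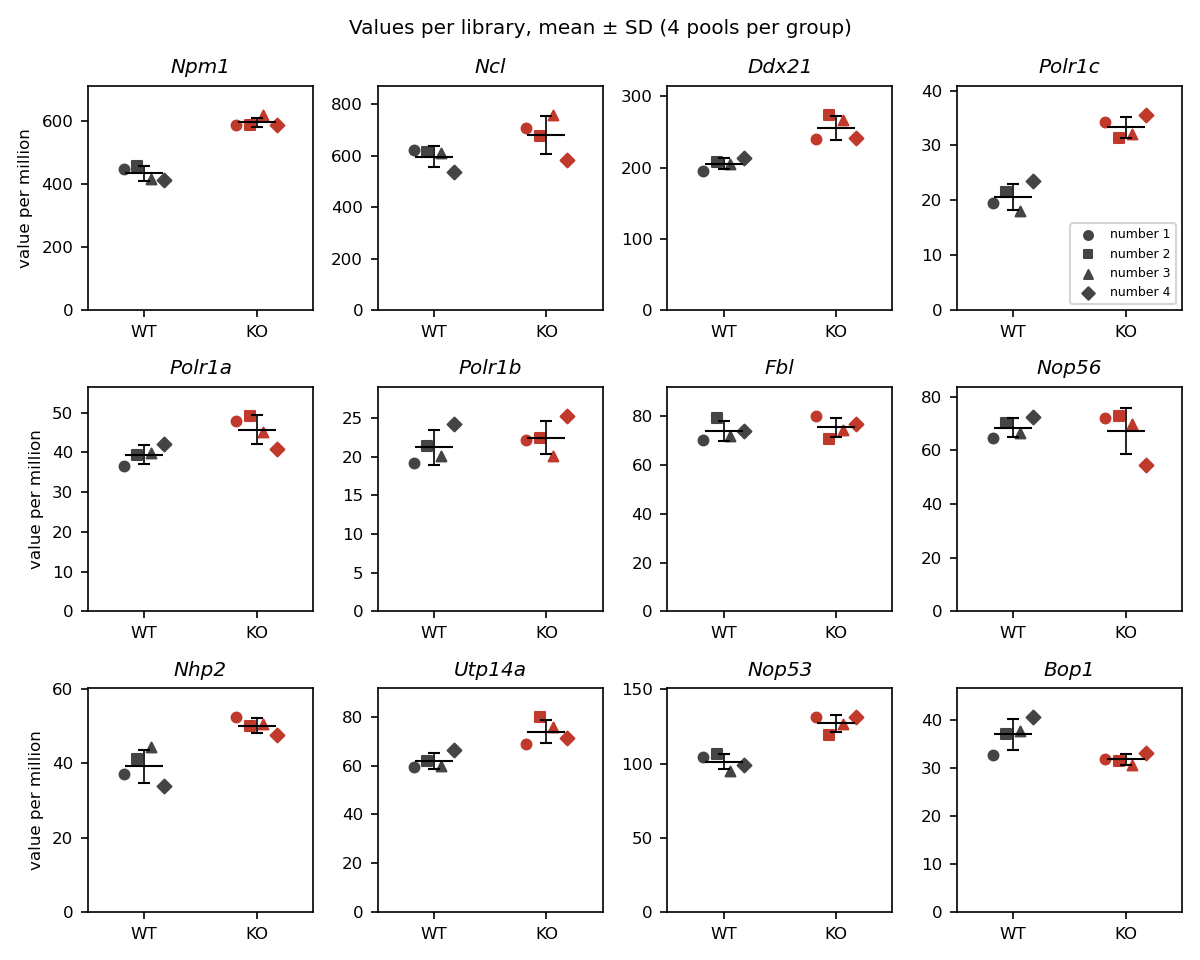
Normalised per-million values in each of the 8 libraries for 12 members, with the group mean and SD; the marker shape is the replicate number. Npm1, Ddx21, Polr1c, Nhp2, Utp14a and Nop53 show no overlap between the groups, while Fbl, Nop56 and Polr1b do.

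Core proteins of the box C/D snoRNPs, which carry out 2′-O-methylation of ribosomal RNA, had nearly the same levels in both groups. limma called 0 of 3 (0 also at unadjusted p under 0.05 and with voom weights), against 38.7% of all genes, with a median of 0.00. Fbl encodes fibrillarin, the methyltransferase. It had 70.4, 79.5, 72.1 and 74.0 in WT and 80.0, 70.6, 74.4 and 76.8 in KO, with a log2 fold change of 0.03 (95% interval -0.09 to 0.14). Nop56 had 64.7, 70.2, 66.5 and 72.6 in WT and 72.0, 72.7, 70.0 and 54.7 in KO. Its log2 fold change of -0.03 (95% interval -0.21 to 0.15) took its sign from KO replicate 4 and was 0.06 without it. Nop58 was 68.8 ± 7.10 and 68.7 ± 4.88 (95% interval -0.16 to 0.17). These intervals hold changes of up to about 0.2 in either direction.

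The box H/ACA proteins, which make pseudouridine in ribosomal RNA, had 1 higher call among 4, Nhp2, and 0 lower by limma (0 also at unadjusted p under 0.05 and with voom weights). Their higher share was 25.0%, against 18.7% of all genes. Nhp2 (chromosome 11, 51619735 to 51623714, plus strand) had 37.2, 41.2, 44.2 and 34.0 in WT and 52.3, 50.1, 50.5 and 47.5 in KO. The groups did not overlap (log2 fold change 0.35 with SE 0.0821, adjusted p = 0.00739 by limma). Rmnd5b overlaps Nhp2 on the other strand, and whether reads were counted by strand is not given in the sources used here. Dkc1, the pseudouridine synthase dyskerin, had 37.8, 42.5, 48.1 and 48.5 in WT and 40.8, 41.6, 43.1 and 42.9 in KO (log2 fold change -0.06, 95% interval -0.22 to 0.10). Nop10 had a log2 fold change of 0.10 (adjusted p = 0.336) and Gar1 of -0.06 (adjusted p = 0.61). The interval of Nhp2, 0.19 to 0.51, reached into that of Nop10, -0.05 to 0.26, and the difference between these genes was not tested. Among 11 tested snoRNP assembly factors, Naf1, which brings the H/ACA proteins together, rose (log2 fold change 0.20, adjusted p = 0.0351), which is 9.09% against 18.7% of all genes. That call was lost on the plain scale and when any one of KO replicates 2 and 3 and WT replicates 1 to 3 was left out, with 0.18 the lowest value.

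Small subunit factors had 5 higher and 0 lower calls among 18 by limma (0 lower also at unadjusted p under 0.05 and with voom weights), and a median of 0.16. The higher share was 27.8%, against 18.7% of all genes. In none of the 5 did the groups overlap, which is not separate evidence, because they were picked by the test. Over all genes tested, 18.1% were wholly higher in KO. Utp14a (X chromosome, 48256862 to 48282453, plus strand), a component of the SSU processome, had 59.3, 61.9, 59.9 and 66.2 in WT and 69.0, 79.7, 75.5 and 71.2 in KO (log2 fold change 0.25 with SE 0.0624, adjusted p = 0.0102 by limma). Utp15 and Utp4 belong to UTP-A, the subcomplex that binds the precursor first. Utp15 had 37.5, 35.8, 39.9 and 35.1 in WT and 40.0, 47.2, 47.6 and 43.5 in KO (log2 fold change 0.26, adjusted p = 0.0181), where KO replicate 1 exceeded the highest WT library by a narrow margin. Utp4 had 23.5, 26.8, 24.3 and 25.9 in WT and 29.6, 31.0, 32.0 and 27.4 in KO (log2 fold change 0.25, adjusted p = 0.0212). Utp18 of the UTP-B subcomplex went from 43.4 ± 3.79 to 50.8 ± 1.33 (log2 fold change 0.23, adjusted p = 0.0241). Rrp9, a protein specific to the U3 snoRNP, went from 16.4 ± 1.96 to 20.0 ± 0.801 (log2 fold change 0.27, adjusted p = 0.0354). Parp3 overlaps Rrp9 on the other strand, and 9530027J09Rik so overlaps Utp14a.

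Leaving out 1 library cost most of these calls. The small subunit count was 1 when KO replicate 2 or KO replicate 3 was left out, 2 when any one of WT replicates 1 to 3 was, and 8 without KO replicate 4. Utp15 reached an adjusted p of 0.0561, Utp4 of 0.064, Utp18 of 0.0701 and Rrp9 of 0.0886 at the least favourable omission. On the plain per-million scale limma called 0 of the 18, and the median was 0.07.

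The 13 small subunit members that were not called ran from -0.15 for Utp25 to 0.24 for Rrp12. Nob1, the endonuclease that makes the last cut at the 3′ end of 18S ribosomal RNA, had 14.3, 17.3, 15 and 18.6 in WT and 18.2, 19.9, 16.1 and 20.7 in KO. KO exceeded WT within each of the 4 same-numbered pairs (log2 fold change 0.19, adjusted p = 0.183, and 0.0543 with the replicate block). Utp20, a long scaffold protein of the processome, was 40.8 ± 2.35 and 48.4 ± 6.73 (log2 fold change 0.23, adjusted p = 0.0814), and Rrp12, a factor in export of the precursor, was 20.6 ± 1.84 and 24.6 ± 3.88 (log2 fold change 0.24, adjusted p = 0.142). Both passed with the block (adjusted p = 0.0289 and 0.025). Nop14 (0.19), Rrp7a (0.13), Nop9 (0.09), Utp23 (0.06) and Utp6 (0.01) had positive log2 fold changes below the threshold, and Utp11 (-0.02), Utp3 (-0.07), Rrp36 (-0.10) and Utp25 (-0.15) negative ones. Utp14b, a retrocopy of Utp14a within Acsl3, was the lowest member at 3.49 ± 0.482 and 3.78 ± 0.400. Its reads may be shared with Utp14a and with Acsl3, which lies on the same strand, so its value is uncertain.

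The rest of the small subunit machinery moved in both directions. Of 48 other tested genes for the processome and for 40S maturation, 13 rose and 5 fell, 27.1% and 10.4%, with a median of 0.08. Imp3, a U3 snoRNP protein, went from 27.9 ± 1.65 to 36.7 ± 1.25 (log2 fold change 0.38, adjusted p = 0.00103 by limma), Pno1, the partner of Nob1, from 48.6 ± 1.20 to 62.6 ± 4.04 (0.36, adjusted p = 0.00111), and the helicase gene Dhx37 from 23.9 ± 1.41 to 30.9 ± 1.84 (0.36, adjusted p = 0.00272). Ddx47, another helicase gene of the pathway, went the other way, from 57.7 ± 1.8 to 47.6 ± 0.452 (-0.27, adjusted p = 0.00171). The higher count was 7 without KO replicate 2, KO replicate 3 or WT replicate 1 and 6 on the plain scale, and the lower count was 2 or 3 whichever library was left out.

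Large subunit factors held 2 of 11 higher (18.2%) and the only member called lower (9.09%), with a median of 0.13. Over all genes, 18.7% were higher and 20.0% lower, so the share of higher calls in this role was no larger. Nop53 (ENSMUSG00000041560, chromosome 7, 15936183 to 15946074, minus strand), which takes part in trimming the internal spacer and in adding the 5S ribonucleoprotein, had 104, 106, 95 and 99.3 in WT and 131, 119, 127 and 131 in KO. The groups were well apart (log2 fold change 0.32 with SE 0.0554, adjusted p = 0.00137 by limma). Nop2, a ribosomal RNA methyltransferase, had 34.2, 40.1, 42.0 and 44.4 in WT and 47.6, 51.3, 46.1 and 47.1 in KO (log2 fold change 0.26, SE 0.0816, adjusted p = 0.0323). Its call was lost on leaving out any one of KO replicates 1 to 3 or of WT replicates 1 and 2, with an adjusted p of up to 0.0847.

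Bop1 forms the PeBoW complex with Pes1 and Wdr12, and of the 3 genes only Bop1 was called. Bop1 (chromosome 15, 76452989 to 76477277, minus strand) had 32.6, 37.1, 37.6 and 40.5 in WT and 31.9, 31.5, 30.5 and 33.2 in KO. Only WT replicate 1 lay within the KO range, and KO was below WT in each same-numbered pair (log2 fold change -0.21 with SE 0.0719, adjusted p = 0.0444 by limma). The call was lost without any one library except KO replicate 4 or WT replicate 1, with an adjusted p of up to 0.109, and under quantile normalisation, median centring and no variance trend. Mroh1 and Scx overlap Bop1 on the other strand. Pes1 was 98.0 ± 3.39 and 94.7 ± 0.581 (log2 fold change -0.05, adjusted p = 0.432), and Wdr12 was 29.1 ± 3.29 and 31.9 ± 1.90 (0.13, adjusted p = 0.263). The interval of Bop1, -0.35 to -0.07, came close to that of Wdr12, -0.04 to 0.31. With the wider intervals of a t distribution they would meet, and the difference between these genes was not tested.

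Of the other large subunit members, Rrs1, which helps to insert the 5S ribonucleoprotein, was 34.7 ± 4.07 and 41.0 ± 2.87 (log2 fold change 0.24, adjusted p = 0.0551 by limma), and Rrp1b, a paralogue of Rrp1, was 16.6 ± 0.580 and 20.0 ± 2.90 (0.25, adjusted p = 0.0807). Both passed with the replicate block (0.0411 and 0.0459), which brought the higher count of this role to 4. Nop16 (0.19), Rrp1 (0.11), Rrp15 (0.06) and Rrp8 (-0.02) were not called. The higher count of the role was 1 on leaving out any one of KO replicates 1 to 3 or of WT replicates 1 and 2, and 4 without WT replicate 4.

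Of 59 other tested genes for large subunit assembly and export, 47 were not called, 11 rose and 1 fell, with a median of 0.07. The share of higher calls, 18.6%, was that of all genes (18.7%), and the share of lower calls was 1.69%, against 20.0%. The changes of Tma16 and Gnl3 were larger than that of any member. Tma16 went from 15.9 ± 2.09 to 29.6 ± 2.84 (log2 fold change 0.86, adjusted p = 0.000189 by limma). Gnl3, which encodes nucleostemin, a GTPase of the nucleolus, went from 46.1 ± 5.62 to 74.5 ± 10.3 (0.68, adjusted p = 0.00135). Nsa2 had 159, 160, 141 and 150 in WT and 233, 231, 232 and 237 in KO, a tight separation (0.61, adjusted p = 2.47e-05), and Gtpbp4, a GTPase of early 60S particles, went from 87.0 ± 7.72 to 117 ± 8.16 (0.42, adjusted p = 0.00161). The 1 lower call was Nvl, an ATPase that frees factors from 60S precursors (-0.25); this gene was named after its value was seen. The lower count was 2 without KO replicate 4.

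**Figure D4:**
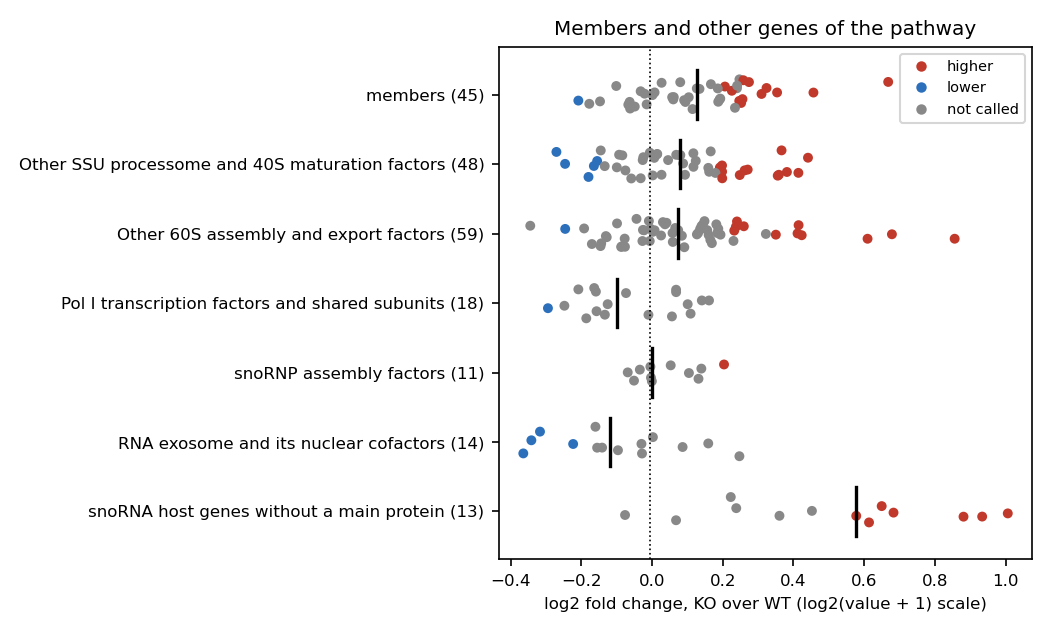
Log2 fold changes of the 45 members and of 6 other lists of the pathway, with the number of genes tested; black bars are list medians and the dotted line is the median of all genes. The snoRNA host genes sit farthest to the right with a median of 0.58, and the exosome list to the left with -0.12.

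The exosome list held the RNA exosome, which trims and degrades precursor RNA, its nuclear cofactors, and Xrn2, which is not part of the exosome. This list had no higher call by limma among 14 genes (1 at unadjusted p under 0.05 and 0 with voom weights). It had 4 lower calls and a median of -0.12. Exosc8 went from 33.9 ± 1.27 to 27.1 ± 1.72 (log2 fold change -0.32, adjusted p = 0.00349 by limma). Dis3, a catalytic subunit, went from 25.1 ± 1.69 to 19.7 ± 1.6 (-0.34, adjusted p = 0.00791), and Xrn2, a nuclear 5′ to 3′ exonuclease, from 156 ± 13.1 to 122 ± 13.8 (-0.36, adjusted p = 0.0117). Exosc3 was called at an adjusted p of 0.048 (-0.22), and lost this call when KO replicate 1, 2 or 3 or WT replicate 1, 2 or 4 was dropped. The share of lower calls in the list, 4 of 14 (28.6%) with Xrn2 among the 4, stood against 20.0% of all genes. Without WT replicate 2 there was 1 higher call.

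Host genes of small nucleolar RNAs, whose introns carry the guides for the snoRNPs, included some with larger changes than any protein member. Of 13 such genes with no main protein product, 7 rose and limma called 0 lower (0 also at unadjusted p under 0.05 and with voom weights), with a median of 0.58. Higher calls made up 53.8%, against 18.7% of all genes. Gas5 had 41.1, 42.3, 39.3 and 51.2 in WT and 68.8, 73.8, 67.6 and 63.9 in KO (log2 fold change 0.65, adjusted p = 0.00027 by limma). Snhg6 went from 7.34 ± 0.391 to 15.8 ± 1.8 (1.01, adjusted p = 3.88e-05), Snhg17 from 12.2 ± 1.29 to 24.3 ± 3.90 (0.93, adjusted p = 0.000259) and Snhg20 from 2.81 ± 0.483 to 6.05 ± 1.20 (0.88, adjusted p = 0.00139). By the annotation, 5 protein members host snoRNAs too: Ncl (3), Nop56 (5), Nop58 (4), Dkc1 (1) and Nop53 (1). Of these 5, Nop53 rose and the median was 0.00, while 11 of the 40 members without such an RNA rose, with a median of 0.13. The poly(A) libraries counted the spliced host transcripts, not the snoRNAs.

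Myc, which drives many genes of ribosome biogenesis, had 65.6, 68.9, 62.5 and 93.9 in WT and 62.6, 72.6, 79.1 and 92.7 in KO. The groups overlapped fully (log2 fold change 0.08, SE 0.145, adjusted p = 0.699). Of the 10 tested genes of its network, the Max partners Mxd4, Mxd3 and Mxd1 fell and Mxi1 rose, these 4 encoding proteins that compete with Myc for Max. Mxd4 went from 102 ± 8.72 to 53.5 ± 10.3 (log2 fold change -0.93, adjusted p = 0.000315 by limma), Mxd3 from 5.41 ± 1.52 to 1.27 ± 0.502 (-1.49, adjusted p = 0.000508), Mxd1 from 54.7 ± 4.13 to 45.5 ± 5.06 (-0.27, adjusted p = 0.0403) and Mxi1 from 114 ± 9.04 to 150 ± 6.89 (0.39, adjusted p = 0.00123). The Mxd1 call was lost on leaving out KO replicate 2, KO replicate 3, WT replicate 1, WT replicate 2 or WT replicate 4. The network had 2 higher calls without KO replicate 4 or without WT replicate 4.

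Summed over the 45 members, values were 2912, 3049, 2949 and 2971 in WT replicates 1 to 4 and 3422, 3443, 3537 and 3270 in KO replicates 1 to 4, so that every KO library was above every WT library. Without Ncl and Npm1, the sums were 1842 to 2020 in WT and 2100 to 2177 in KO on the authors' scale. With the library factor taken out, these sums without Ncl and Npm1 overlapped between the groups. The share of the reads in the listed genes is not touched by that factor. All 45 members together took 0.298% to 0.316% of them in WT and 0.318% to 0.344% in KO. KO replicate 4 had the lowest sum of the KO libraries and was the lowest KO library for 18 of the 45 members and the highest for 12. KO exceeded WT in all 4 same-numbered pairs for 18 members and fell below in all 4 for 2, Bop1 and Rrp36, against 28.0% and 30.7% of all genes.

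**Figure D5:**
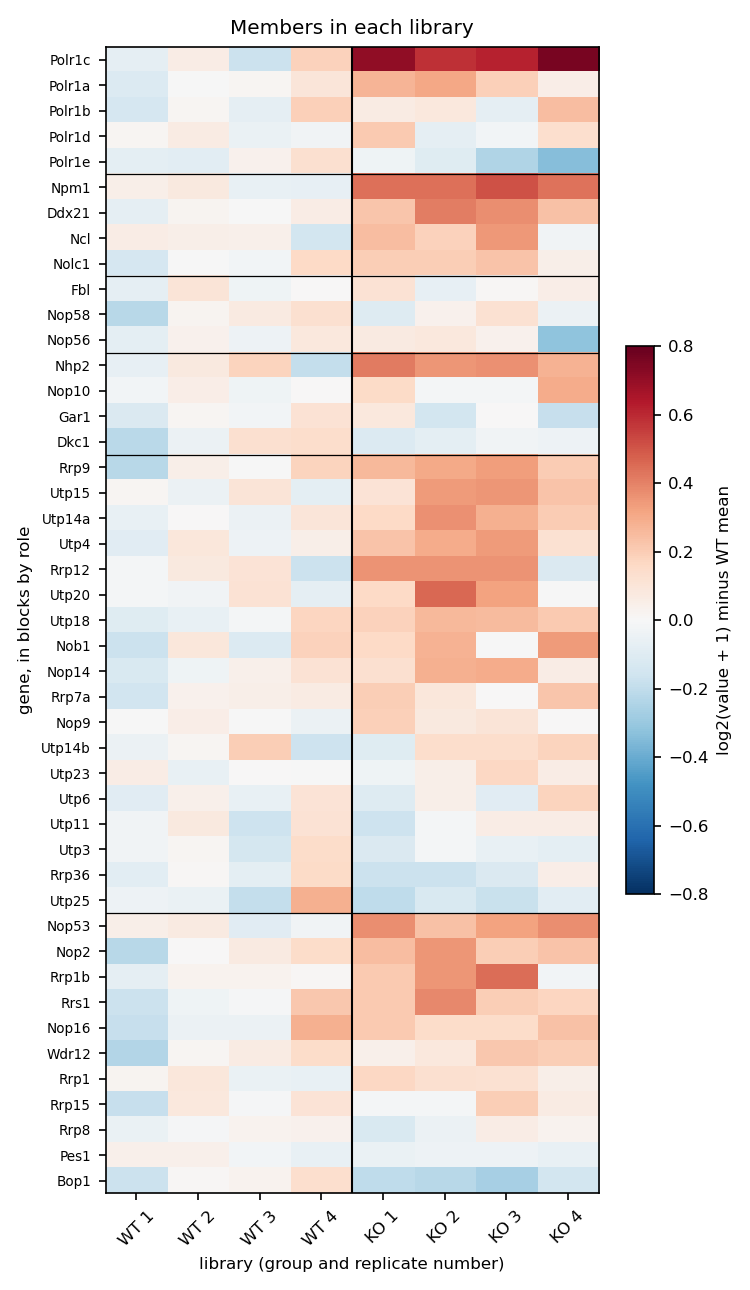
Each member in each library as log2(value + 1) minus its WT mean, in blocks by role. The KO columns are darkest red for Polr1c and Npm1, the box C/D block is pale apart from Nop56 in KO replicate 4, and KO replicate 4 is paler than the other KO libraries for Ncl, Rrp12, Utp20 and Rrp1b.

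The increases were measured in cells with lower cell cycle expression. All 25 genes of a cell cycle list fell, with a median of -1.38, and the sums did not overlap, 1305 to 2069 in WT and 659 to 793 in KO. Mki67, a marker of cycling cells, went from 223 ± 44.0 to 67.4 ± 9.25 (log2 fold change -1.70, adjusted p = 2.42e-05 by limma). In bulk samples, fewer cells of a type and less RNA per cell cannot be told apart. Of the interstitial macrophage and monocyte markers, 7 of 10 were tested and 6 rose, with summed values of 38.8 to 64.9 in WT and 74.3 to 212 in KO. The highest KO sum was in KO replicate 1 and the lowest in KO replicate 2. C1qb, a complement gene of such cells, had 10.8, 4.33, 8.59 and 4.55 in WT and 47.0, 11.8, 20.3 and 25.6 in KO (log2 fold change 1.68, adjusted p = 0.00757).

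Among markers of other cells, some of each of 3 lists were called. Of 6 dendritic cell markers, Clec9a rose (1.3 ± 0.347 to 2.74 ± 0.743), with sums of 14.3 to 20.6 in WT and 15.4 to 28.2 in KO. Of 3 tested neutrophil markers, Csf3r and S100a9 fell, with sums of 69.4 to 97.7 and 29.5 to 40.2. Of 6 T and NK cell markers, Cd2 alone was tested and fell (237 ± 11.4 to 170 ± 21.3). Cd3e, Cd3d, Cd3g, Nkg7 and Ncr1 are absent from the expression table, so the fall of Cd2 cannot be read as a loss of such cells. Of 4 B cell markers 1 was tested, with sums of 0.769 to 1.47 and 0.436 to 1.14. limma called 0 of 5 tested epithelial markers (1 at unadjusted p under 0.05), with sums of 111 to 223 in WT and 162 to 230 in KO, 0 of 4 endothelial markers (18.7 to 80.8 and 28.6 to 45.2) and 0 of 4 erythroid markers (25.3 to 60.7 and 12.9 to 68.0), these 2 lists having 0 at unadjusted p under 0.05 and all 3 having 0 with voom weights. Without WT replicate 3, however, 3 epithelial and 3 endothelial markers were called higher, and 1 epithelial marker was without KO replicate 4 and with the replicate block. The part of cell cycle expression and of other cell types in the changes of the members was not tested.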

How the data were processed

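RNA-seq was analysed in 8 libraries of sorted alveolar macrophages, 4 WT and 4 KO, grouped by the sample titles. Libraries were made from total RNA with a directional kit, per the labels' protocols. The submitters' processing notes name RSEM 1.3.1, cutadapt 1.7.1, CASAVA 1.8.2, limma and the build GRCm38. Not given in the sources used here are the aligner, the annotation release and whether counting used strand. The deposited table holds a normalised signal made by the authors: each value is a whole read number plus 0.5 on a per-million scale with a library factor, as read from the spacing of the values (whole at a tolerance of 0.01).

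Values were tested as log2(value + 1) with limma 3.58.1 in R 4.3.3 (two-sided, moderated variances with a trend on the mean, adjusted p under 0.05 by Benjamini-Hochberg over all genes tested), for genes with at least 1 in at least 4 libraries. The filter left out 204 rows and kept all 45 members. Each library is a pool of mice, so p-values measure the spread between pools. The main fit has no term for the replicate number, although same-numbered libraries varied together, as given below. The steps were tested on simulated data. Gene positions and exon lengths came from the GENCODE annotation of GRCm38 and promoter sequences from RefSeq. No RefSeq window was found for 9 members.

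The members and the lists were chosen with earlier results of these data known. Library values are given, in each role, for up to 3 called members with the lowest p, and for Polr1a, Polr1b, Fbl, Nop56, Dkc1, Ncl, Npm1, Nob1 and Tfam. Each list gives up to 4 called genes with the lowest p, and Ubtf, Rrn3 and Myc. Cd3eap, Nvl, Itgax, Car4 and the RNA polymerase III genes are named outside this rule, with their values already known. Alternatives were filters, pseudocounts, centring, quantile normalisation, no variance trend, a replicate block, leaving out libraries and, added after seeing the data, the plain per-million scale and voom weights.

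Both groups use replicate numbers 1 to 4. Over genes, departures from the group mean had correlations of 0.36, 0.29, 0.39 and 0.43 in libraries sharing a number and -0.37 to 0.092 in the rest. This is taken as pairing, from the values alone: no label explains the numbers.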

Additional observations from a re-analysis of the deposited data

Results flagged for a closer look

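In 9 of the 174 groups of 4 libraries that were searched, 1 library lay far from the other 3 by the critical value of Dixon's gap test. Chance alone marks about 1 group in 20, so this number is close to what chance gives. Among the members, 7 of 90 groups were marked. KO replicate 4 was low for Nop56 (54.7, others 70.0 to 72.7) and for Rrp12 (18.8, others 26.5 to 26.6). Npm1 was high in KO replicate 3 (617, others 586 to 588), and Rrs1 in KO replicate 2 (45.2, others 39.0 to 40.0). Utp14b was low in KO replicate 1 (3.19, others 3.92 to 4.07). Ncl was low in WT replicate 4 (537, others 613 to 622), and Rrp7a in WT replicate 1 (52.2, others 59.7 to 61.0). Of the exosome list, Dis3 was low in KO replicate 1 (17.3, others 20.4 to 20.6) and Xrn2 in KO replicate 4 (101, others 126 to 130).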

How the results depend on the processing

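Filters (none, or a minimum of 8) and pseudocounts of 0.25 and 5 kept every member count within 1.5 times its value in the report. Planned tests with count models were not run, because the deposited values are scaled and not raw reads. Read numbers recovered from the spacing of the values were used for the read totals and the voom weights. Log2 fold changes of the named genes kept direction and side of the threshold in 554 of 616 values with 1 library left out and in 802 of 836 under the other alternatives. With 4 libraries a group, the smallest called change of a member was 0.21.

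On the plain per-million scale, members called higher were 5 and lower 3, with a median of 0.037; RNA polymerase I subunits had 1 higher and 1 lower, small subunit factors 0 higher, and large subunit factors 1 higher and 2 lower. On that scale its transcription factors had 5 lower, the other 40S genes 6 higher and the other 60S genes 7 higher and 4 lower. The snoRNP assembly genes had 0 higher and the exosome list 7 lower. Polr1b became -0.0072, Fbl -0.063 and Myc -0.0086 there, and calls over all genes went from 2279 higher and 2429 lower to 1710 and 3482. These shifts follow from leaving out a factor that differs between the groups: the median of all genes went from -0.01 to -0.09, which turns the sign of a value near 0.

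Without both libraries numbered 4, members called higher were 20 (44.4%) and lower 0, where 19.8% of all genes were higher and 21.3% lower. By role, 8 small subunit, 5 large subunit and 4 abundant nucleolar genes were higher, and 0 large subunit genes were lower. RNA polymerase I factors had 3 lower, other 40S genes 2 lower, other 60S genes 18 higher and Myc network genes 2 higher. Nop56 became 0.0918 in this setting. Members called lower, all large subunit genes, were 0 with median centring, with quantile normalisation and with no variance trend. With no variance trend 1 RNA polymerase I subunit was higher. Quantile normalisation gave 4 large subunit genes higher and 3 other 40S genes lower, and median centring 2 other 40S genes lower. The exosome had 1 higher call with median centring, a minimum of 8, no variance trend and quantile normalisation.

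With the replicate block, members called higher were 16 and lower 1. RNA polymerase I subunits had 1 higher, large subunit genes 4 higher, RNA polymerase I factors 3 lower, other 60S genes 2 lower and the exosome 1 higher. Among named members the block changed no call other than those given in the report.

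With 1 library left out, members called higher ran from 6 to 18 and lower from 0 to 1, and the median from 0.10 to 0.16. RNA polymerase I subunits called higher ran from 1 to 2, small subunit genes from 1 to 8, large subunit genes from 1 to 4 higher and 0 to 1 lower, and abundant nucleolar genes from 2 to 4. RNA polymerase I factors ran from 0 to 1 higher and 0 to 3 lower, other 40S genes from 7 to 16 higher and 2 to 3 lower, other 60S genes from 8 to 15 higher and 1 to 2 lower, snoRNP assembly genes from 0 to 1 higher, the exosome from 0 to 1 higher, and Myc network genes from 1 to 2 higher. Fbl ran from -0.0013 (without KO replicate 1) to 0.0617, Nop56 from -0.0716 to 0.0636 (without KO replicate 4) and Myc from -0.0133 (without KO replicate 4) to 0.209. Apart from those on the plain scale, the cause of the shifts in this section was not tested.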

Other observations

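RNA polymerase III, which makes 5S ribosomal RNA and transfer RNAs, shares the products of Polr1c and Polr1d. Its 10 genes whose symbols begin with Polr3, chosen after their values were seen, had 1 higher and 2 lower calls and a median log2 fold change of 0.03. Polr3d rose from 15.6 ± 1.26 to 20.3 ± 2.30 (0.36, limma adjusted p = 0.0129). Polr3gl fell from 24.3 ± 2.37 to 17.9 ± 2.29 (-0.42, adjusted p = 0.0101), and its paralogue Polr3g was 11.5 ± 1.11 and 10.8 ± 0.757 (-0.08, adjusted p = 0.524). Polr3b, the second-largest subunit, fell from 23.4 ± 0.532 to 20.1 ± 1.67 (-0.21, adjusted p = 0.0397).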
